A study of Mus musculus with 4 samples.

Results

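The genes described here encode the enzymes of glycolysis, the pentose phosphate pathway and the transporters that carry lactate across the plasma membrane. They were 33 genes chosen by name from those pathways, of 17742 genes named on the arrays, and 25 of them were measured, by 30 probes. No probe was matched to Gapdh, Pgk1, Eno1, Eno2, Eno3, Ldha, Ldhb or G6pdx, which were not analysed here. The lactate dehydrogenases and the entry enzyme of the pentose phosphate pathway are therefore outside the account.

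RNA came from 3T3-L1 cells, an established mouse preadipocyte line, and each sample was read on 1 array labelled with Cy5. All samples were held for 48 hours in an adipogenic mixture of isobutylmethylxanthine (0.5 mM), dexamethasone (1 µM) and insulin (1 µg/ml). The control group (n = 2) is taken to have had the mixture alone. The berberine group (n = 2) also had berberine, a plant alkaloid, at 13.47 µM. The treatment protocol mentions berberine for every sample, so the groups were taken from the sample titles. No sample without the mixture was analysed here, so a change from the uninduced state cannot be read. The design asks how berberine acts on cells that have been induced to differentiate.

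Glycolysis splits glucose into pyruvate in the cytosol, and its pace is set mainly at hexokinase, phosphofructokinase and pyruvate kinase. Pyruvate then enters the mitochondria through pyruvate dehydrogenase or leaves the cell as lactate. The pentose phosphate pathway branches off at glucose phosphate, and its oxidative steps make the NADPH that differentiating adipocytes spend on fatty acid synthesis. Berberine is known as an inhibitor of mitochondrial complex I.

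Values are log2 intensities after quantile normalization, and a change is berberine minus control. A gene was called when the adjusted p of its limma fit (Benjamini-Hochberg over all 26408 probes) was under 0.05. Where a gene had several probes, the brightest one on average over the 4 arrays stands for it. Across all 17734 genes fitted, 30% were called higher and 18.2% lower. The median change of all genes was 0.20 here. It was -0.018 without normalization, 0.55 with arrays centred on their median and 0.29 with arrays scaled to a common 75th percentile. Changes under another scaling are to be read against these shifts. The labels do not state whether the 2 samples of a group are separate cultures, so the spread behind each p-value may be technical only.

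Berberine samples had higher signal for the phosphofructokinase subunit Pfkl, the pyruvate kinase Pkm and the pentose phosphate dehydrogenase Pgd, each by more than 2-fold. The lactate exporter Slc16a3 was higher by 2.13-fold after quantile normalization. Its change was 0.53 in the deposited values, where it did not pass, and 0.83 with percentile scaling. Signal was lower for Rpia, the ribose phosphate isomerase, by 2.67-fold. Of the 25 genes, 12 were called higher (48%), 4 were called lower (16%) and 9 did not pass, against 30% and 18.2% of all genes. Among the called genes 6 were higher by 2-fold or more and 1 was lower by as much, where all genes gave 12.9% and 11.5%. The median change of the 25 genes was 0.36, against 0.20 for all genes. None of the 25 had a group mean under the 25th percentile of the array, while 3858 of all genes did. With probes under it in both groups left out, the counts were again 12 and 4, against 37.5% and 21.8% of the genes left. The median was then 0.36, against 0.25. In the deposited values 5 genes were called higher and 1 lower, against 11.2% and 16.7% of all genes. After centring the counts were 17 and 1 (44.3% and 12.8% of all genes), and with percentile scaling 12 and 1 (25.1% and 14.4%). Without berberine replicate 1, 3 genes were higher and 1 lower (8.39% and 9.57% of all genes), and without berberine replicate 2 also 3 and 1 (9.01% and 9.98%).

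**Figure D1:**
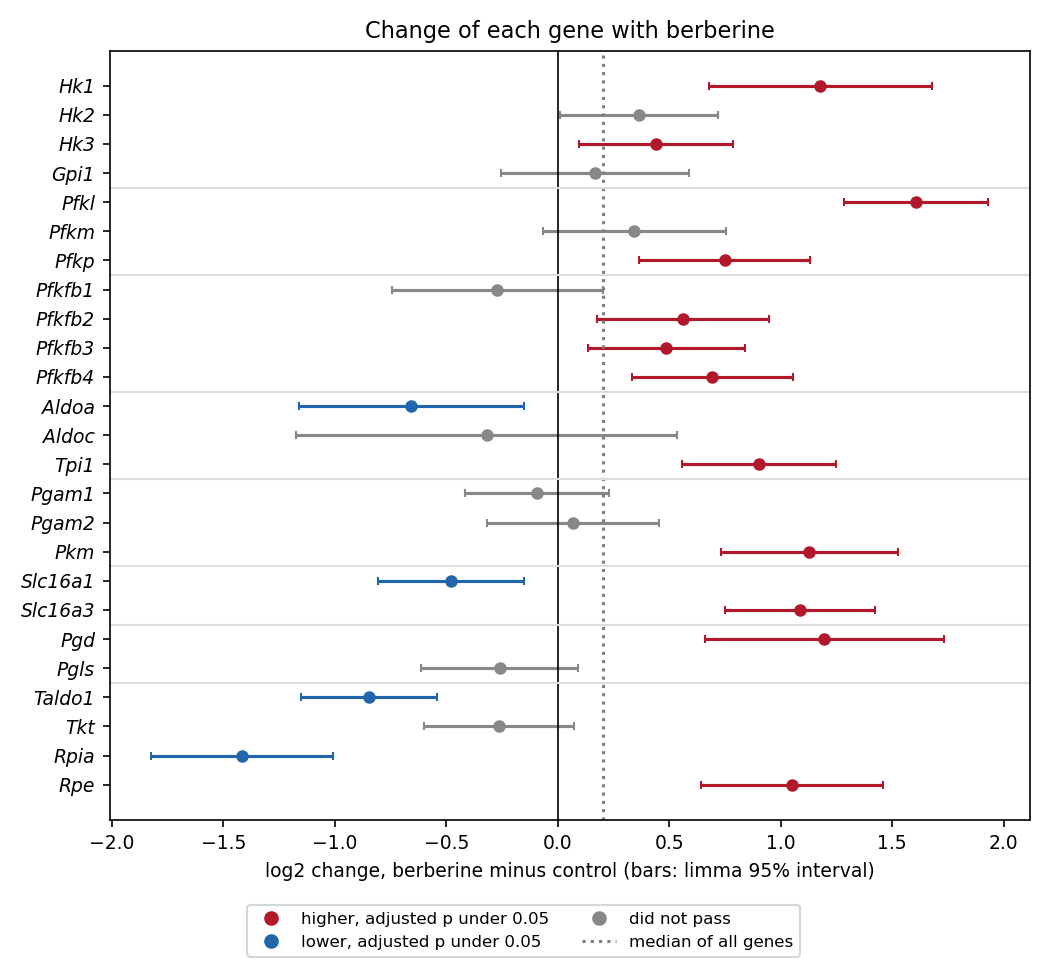
Log2 change (berberine minus control) of the 25 genes, 1 representative probe each, with limma's 95% interval, not adjusted for the number of genes. Red points are the 12 genes called higher, blue points the 4 called lower and grey points the 9 that did not pass; the dotted line is the median of all genes (0.20), and grey rules separate the steps of the pathway.

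Groups did not overlap for 21 of the 25 genes, where 77.5% of all genes did not. Both berberine arrays lay above both controls for 14 of them and below for 7, against 49.2% and 28.3% of all genes. In the deposited intensities 11 lay above and 7 below, against 31% and 35.3% of all genes. These shares of all genes include dim genes under the 25th percentile, where none of the 25 lay.

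Promoters are shown for the members at least 2-fold changed after quantile normalization whose call held whichever single array was left out. They are Pfkl and Slc16a3, which rose, and Rpia, which fell, and RefSeq (GRCm38.p6) lists a single start for each. The Slc16a3 call was lost in the deposited values. Each sequence is the 250 bases before the start, on the gene's strand, at chr10:78009808-78010057 (minus strand), chr11:120948817-120949066 (plus strand) and chr6:70792176-70792425 (minus strand). Capitals mark ACGTG or GCGTG on either strand, the core letters of the hypoxia response element.
Pfkl: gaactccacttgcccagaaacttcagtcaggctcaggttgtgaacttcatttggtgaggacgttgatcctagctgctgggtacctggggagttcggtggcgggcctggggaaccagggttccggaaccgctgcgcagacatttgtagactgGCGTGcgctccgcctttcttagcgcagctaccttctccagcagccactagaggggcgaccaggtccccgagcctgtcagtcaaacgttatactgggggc
Slc16a3: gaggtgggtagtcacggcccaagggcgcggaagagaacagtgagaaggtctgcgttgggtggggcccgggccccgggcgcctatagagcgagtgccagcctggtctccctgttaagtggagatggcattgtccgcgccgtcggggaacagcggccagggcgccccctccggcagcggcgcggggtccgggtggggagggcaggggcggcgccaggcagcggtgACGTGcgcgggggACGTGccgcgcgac
Rpia: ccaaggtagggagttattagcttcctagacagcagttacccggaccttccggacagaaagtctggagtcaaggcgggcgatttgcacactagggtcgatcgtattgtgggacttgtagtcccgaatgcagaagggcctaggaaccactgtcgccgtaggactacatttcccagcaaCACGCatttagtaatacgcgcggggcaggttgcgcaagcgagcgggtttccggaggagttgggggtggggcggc

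The core was found at 1 place in the Pfkl window, 2 in that of Slc16a3 and 1 in that of Rpia, so it occurs before genes that rose and before a gene that fell. It was present in 17 of the 25 windows (68%), against 48.4% of the 13980 genes on the array with a promoter in the table and 38.6% of all 27025 promoters. The GC box GGGCGG was also in 17 windows (48.6% of array genes, 32.9% of all promoters). The E-box CACGTG, whose letters contain the core, was in 3 (7.32% and 6.05%), CCAAT in 9 (35.5% and 34.5%) and TATAAA in 0 (9.71% and 13%). A gene with several starts was counted by the first one listed and both strands were read. These are matches of letters only.

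Hexokinases commit glucose to the cell by phosphorylating it. Hk1, the broadly expressed form, read 12.30 and 11.83 on the control arrays and 13.29 and 13.19 with berberine. The berberine arrays were both above the controls, a 2.26-fold rise (change 1.18, SE 0.19, adjusted p = 0.00781). The call was lost without either berberine array (adjusted p = 0.0878 and 0.0741).

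The other Hk1 probe gave the opposite result. It read 9.97 and 9.75 in control and 8.48 and 8.31 with berberine, a fall of 2.76-fold (change -1.47, SE 0.15, adjusted p = 0.00177). Both Hk1 calls held under all 3 other scalings, and with the probes averaged the gene stood at -0.14 (adjusted p = 0.497). The direction for Hk1 therefore depends on the probe read, and which transcripts each probe detects is not given in the sources used here.

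Hk2, the insulin-regulated hexokinase of fat and muscle, read 14.14 and 14.35 in control and 14.63 and 14.59 with berberine. All berberine values were above the controls, but the change of 0.36 did not pass (95% interval 0.010 to 0.72, adjusted p = 0.0865). It passed with arrays centred (1.14, adjusted p = 0.00418) and with percentile scaling (0.88, adjusted p = 0.0181). Hk3, a hexokinase known mainly from blood cells, was called 1.36-fold higher (adjusted p = 0.0487), but its deposited intensities overlapped, at 222 and 219 in control and 197 and 230 with berberine. Its change was -0.051 in the deposited values, -0.033 relative to the median of all genes, against 0.24 relative to it after quantile normalization.

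Gpi1, the isomerase that turns glucose phosphate into fructose phosphate, also differed between its probes. The brighter probe read 15.43 and 15.22 in control and 15.35 and 15.63 with berberine, overlapping, and did not pass (change 0.17, 95% interval -0.25 to 0.59). It passed with arrays centred (0.96, adjusted p = 0.0113) and with percentile scaling (0.70, adjusted p = 0.0383). Relative to the median of all genes it was -0.036 after quantile normalization and 0.42 under the other scalings. With its probes averaged the gene passed (0.82, adjusted p = 0.00481). The dimmer probe went from 8.24 and 8.20 to 9.74 and 9.66, a 2.79-fold rise (adjusted p = 0.000956).

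Phosphofructokinase adds the second phosphate and is the main control point of glycolysis. Pfkl, the liver-type subunit, had the largest rise of the 25 genes after quantile normalization, while Pgd, Hk1 and Pkm rose more under the 3 other scalings. It read 7.24 and 7.15 in control and 8.85 and 8.75 with berberine, well separated, a 3.04-fold rise (change 1.61, SE 0.12, adjusted p = 0.000849). The call held under all 12 alternatives run, with a largest adjusted p of 0.0277.

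Pfkp, the platelet-type subunit, read 7.46 and 7.18 in control and 8.06 and 8.07 with berberine, a 1.68-fold rise (adjusted p = 0.0141). In the deposited values its intensities overlapped (221 and 159 against 204 and 242) and it did not pass (0.25, adjusted p = 0.565). It also did not pass with percentile scaling (0.55, adjusted p = 0.0644), and the call was lost without either berberine array. Pfkm, the muscle-type subunit, read 13.20 and 12.89 in control and 13.45 and 13.33 with berberine. Its change of 0.34 did not pass (95% interval -0.067 to 0.76, adjusted p = 0.141), and it passed with arrays centred (1.03) and with percentile scaling (0.77). No phosphofructokinase subunit was lower.

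The PFKFB enzymes make and break the fructose bisphosphate that activates phosphofructokinase. Of the 4 genes, 3 were called higher and 1 did not pass. Pfkfb4 read 11.11 and 11.34 in control and 11.95 and 11.88 with berberine, a 1.62-fold rise (adjusted p = 0.0150). Pfkfb3, the form with the strongest kinase activity, read 11.40 and 11.58 in control and 12.04 and 11.91 with berberine, a 1.40-fold rise (adjusted p = 0.0397). Both rises missed the threshold in the deposited values (adjusted p = 0.181 and 0.363). The Pfkfb4 call was also lost without either berberine array, and that of Pfkfb3 whichever of the 4 arrays was left out. Over the arrays left out the change was 0.58 to 0.81 for Pfkfb4 and 0.40 to 0.57 for Pfkfb3.

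Pfkfb2, the heart-type form, was called higher at 2 of its 3 probes. The brightest went from 9.87 and 9.61 to 10.24 and 10.36 (change 0.56, adjusted p = 0.0337), and the next from a mean of 9.03 ± 0.040 (SD, n = 2) to 9.86 ± 0.088 (change 0.83, adjusted p = 0.00603). The last lay under the 25th percentile of the array in both groups, taken here as a floor (log2 6.58), so no change can be read from it. In the deposited values the brightest probe changed by 0.0024. Its call was lost there, with percentile scaling (0.31, adjusted p = 0.263) and with probes averaged (0.24, adjusted p = 0.293). It was also lost without control replicate 2 or either berberine array. The call of the next probe was lost in the deposited values (0.22, adjusted p = 0.594), with percentile scaling (0.53, adjusted p = 0.0749) and without either berberine array. Pfkfb1, the liver-type form, read 10.60 and 11.01 in control and 10.60 and 10.47 with berberine, overlapping, and did not pass (change -0.27, 95% interval -0.74 to 0.20).

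**Figure D2:**
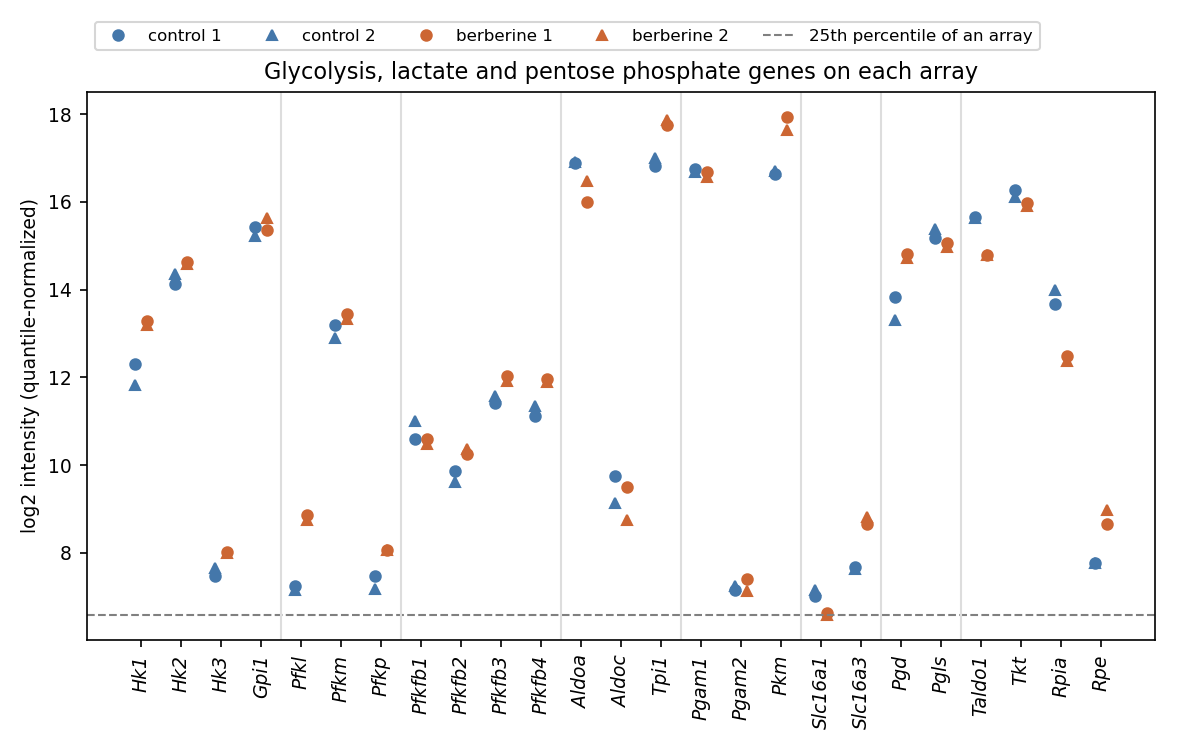
Quantile-normalized log2 intensity of the 25 genes on each of the 4 arrays, control in blue and berberine in orange, replicate 1 as circles and replicate 2 as triangles; the dashed line is the 25th percentile of an array (6.58). Levels of different genes come from different probes and are not comparable. Within a gene, berberine points lie well apart from control points for Pfkl, Tpi1, Pkm, Rpia, Taldo1, Slc16a3, Rpe and Pgd, among others.

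Aldolase and triose phosphate isomerase carry the sugar into the triose part of the pathway. Tpi1, the isomerase, read 16.82 and 17.00 in control and 17.76 and 17.86 with berberine, a 1.87-fold rise (change 0.90, SE 0.13, adjusted p = 0.00573). The call was lost without either berberine array (adjusted p = 0.0618 and 0.0706) and held under the 3 other scalings.

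Aldoa, the common aldolase, moved the other way. It read 16.88 and 16.90 in control and 15.99 and 16.48 with berberine, a change of -0.66 (SE 0.19, adjusted p = 0.0467). The call was lost whichever of the 4 arrays was left out (adjusted p = 0.0554 to 0.189) and under the 3 other scalings, and after centring the change was -0.016 while the median of all genes was 0.55. Aldoc, the brain-type aldolase, had the widest spread of the set, at 9.75 and 9.14 in control and 9.50 and 8.75 with berberine, and did not pass (change -0.32, 95% interval -1.17 to 0.54).

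In the lower part of glycolysis, where the ATP is made, only 3 genes were measured. Pkm, the pyruvate kinase of proliferating cells and muscle, was matched through its older symbol Pkm2. It read 16.64 and 16.70 in control and 17.95 and 17.65 with berberine, clearly separated, a 2.19-fold rise (change 1.13, SE 0.15, adjusted p = 0.00433). The rise was 1.15 in the deposited values, and the call was lost only without berberine replicate 1 (0.98, adjusted p = 0.0516). Whether the probe separates the M1 and M2 splice forms is not given in the sources used here.

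Pgam1, the common phosphoglycerate mutase, read 16.74 and 16.68 in control and 16.68 and 16.56 with berberine, a change of -0.093 (95% interval -0.41 to 0.23) that did not pass. After centring it was 0.56 and passed (adjusted p = 0.0345), at the median of all genes (0.55). Pgam2, the muscle mutase, read 7.15 and 7.24 in control and 7.40 and 7.13 with berberine, overlapping. Its change of 0.068 did not pass and lay below the median of all genes, at -0.14 relative to it after quantile normalization and -0.29 under the other scalings.

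Lactate leaves and enters cells through the monocarboxylate transporters, and the 2 that were measured differed in direction. Slc16a3 encodes MCT4, the form known for lactate export from glycolytic cells. It read 7.66 and 7.62 in control and 8.65 and 8.81 with berberine, a 2.13-fold rise (change 1.09, SE 0.13, adjusted p = 0.00294). The call held whichever single array was left out but was lost in the deposited values (0.53, adjusted p = 0.187), where the intensities were 260 and 216 against 302 and 386.

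Slc16a1 encodes MCT1, the widely expressed form that takes lactate in or out. It read 7.01 and 7.15 in control and 6.64 and 6.57 with berberine, a change of -0.48 (SE 0.13, adjusted p = 0.0341). The berberine mean of 6.60 is next to the floor of 6.58, and the call was lost under the 3 other scalings and without control replicate 2, berberine replicate 1 or berberine replicate 2 (adjusted p = 0.0664 to 0.180). The difference between the changes of the pair was not tested.

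The oxidative branch of the pentose phosphate pathway makes NADPH. Pgd, 6-phosphogluconate dehydrogenase, read 13.83 and 13.30 in control and 14.81 and 14.71 with berberine, a 2.29-fold rise (change 1.20, SE 0.21, adjusted p = 0.00925). The berberine arrays were close together and both above the controls, which differed by more. The rise was 1.37 in the deposited values, and the call was lost without either berberine array (adjusted p = 0.0962 and 0.0805). Pgls, the lactonase of the step before, read 15.18 and 15.38 in control and 15.06 and 14.97 with berberine. Its change of -0.26 did not pass (95% interval -0.61 to 0.091) and turned to 0.51 after centring, where it passed (adjusted p = 0.0443) while the median of all genes was 0.55.

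The non-oxidative branch links ribose phosphate back to glycolysis, and its enzymes did not move together. Rpia, the isomerase that forms ribose phosphate, had the largest fall of the 25 genes. It read 13.68 and 13.99 in control and 12.48 and 12.37 with berberine, a 2.67-fold fall (change -1.42, SE 0.16, adjusted p = 0.00237). The fall was -1.31 in the deposited values and -0.74 after centring, and the call held under all 12 alternatives run, with a largest adjusted p of 0.0454.

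Rpe, the epimerase acting on the same substrate, rose. It read 7.76 and 7.76 in control and 8.65 and 8.98 with berberine, a 2.07-fold rise (change 1.05, SE 0.16, adjusted p = 0.00592). The call was lost without normalization (0.49, adjusted p = 0.249) and without berberine replicate 2 (0.89, adjusted p = 0.0563).

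Taldo1, transaldolase, read 15.66 and 15.63 in control and 14.80 and 14.79 with berberine, a 1.80-fold fall (change -0.85, SE 0.12, adjusted p = 0.00469). The arrays of each group were nearly equal. The call nevertheless missed the threshold in the deposited values (-0.63, adjusted p = 0.113), after centring (-0.067, adjusted p = 0.703), with percentile scaling (-0.33, adjusted p = 0.216) and without either berberine array (adjusted p = 0.0626 and 0.0608). Relative to the median of all genes it was -1.05 after quantile normalization and -0.62 under the other scalings.

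Tkt, transketolase, read 16.28 and 16.12 in control and 15.97 and 15.90 with berberine at its brighter probe, a change of -0.26 that did not pass (95% interval -0.60 to 0.073) and was 0.48 after centring. Relative to the median of all genes it was -0.47 after quantile normalization and -0.072 under the other scalings. Its dimmer probe went from a mean of 8.11 ± 0.15 (SD, n = 2) to 9.06 ± 0.036, a 1.94-fold rise (adjusted p = 0.00506). That call was lost in the deposited values (0.37, adjusted p = 0.308).

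**Figure D3:**
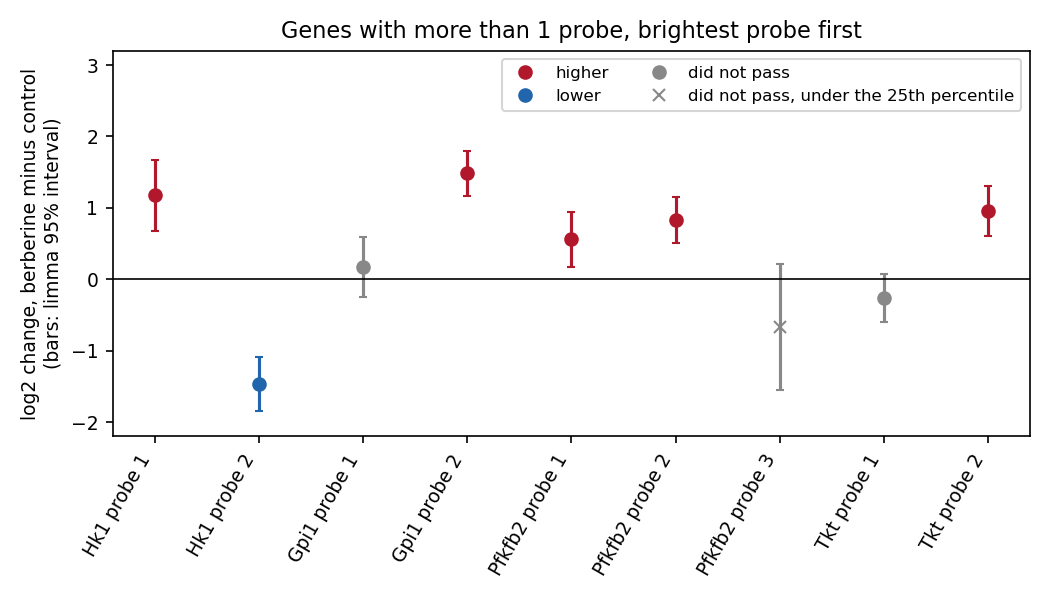
Log2 change (berberine minus control) at each probe of the 4 genes with more than 1 probe, brightest probe first, with limma's 95% interval; red was called higher, blue lower, grey did not pass, and the cross marks the Pfkfb2 probe under the 25th percentile. The probes of Hk1 were called in opposite directions (1.18 and -1.47).

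Several probes were thus the case for 4 of the 25 genes, and Pfkfb2 was the only one whose probes above the floor were all called alike. For the other 21 genes the result rests on 1 probe. Of the 30 probes 15 were called higher and 5 lower, against 27.1% and 17.7% of all probes.

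The size of most changes moved with the scaling. Deposited, centred and percentile-scaled values differ from each other by a constant, so relative to the median of all genes they give each gene the same position. By that measure 15 of the 25 genes lay above the median of all genes, and 14 did after quantile normalization. Pgd stood at 1.39, Hk1 at 1.23, Pkm at 1.17, Pfkl at 1.13 and Tpi1 at 0.86 above it, and Rpia at -1.29, Aldoc at -0.91 and Slc16a1 at -0.75. Of the 16 calls, 6 held under all 3 other scalings: Hk1, Pfkl, Tpi1, Pkm, Pgd and Rpia. For Hk1 this is the brighter probe only, as its other probe stood at -2.03 and was called lower under all 3. The calls of Pfkl, Slc16a3 and Rpia held with each array in turn left out of the fit, all 4 having been normalized together.

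**Figure D4:**
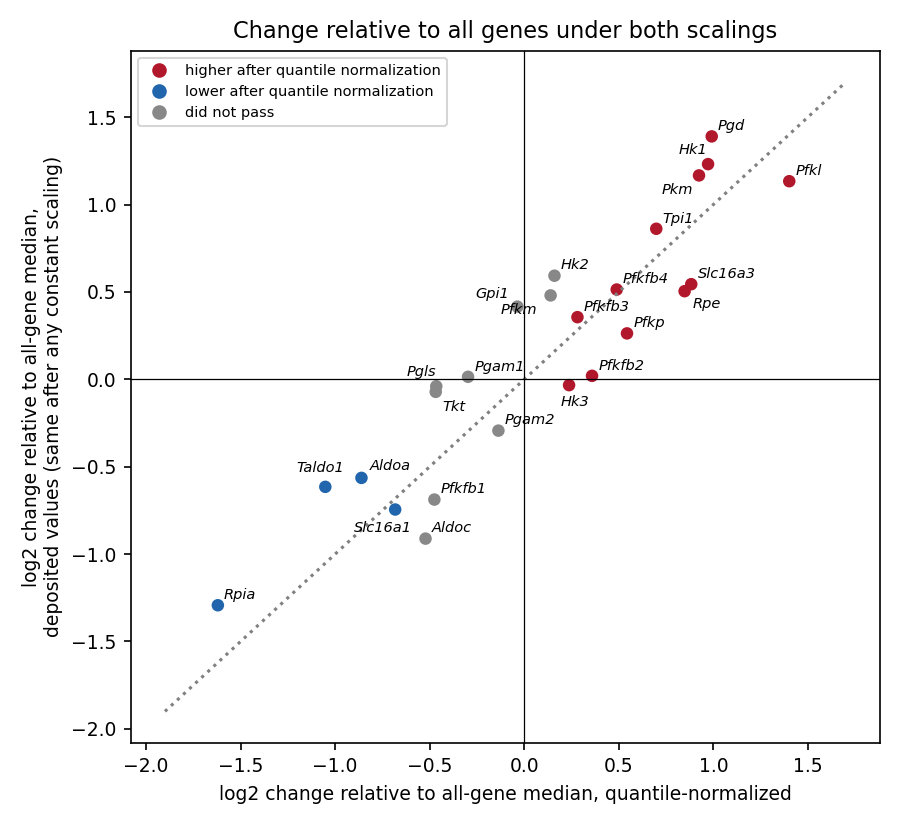
Log2 change of each of the 25 genes, 1 representative probe each, minus the median change of all genes, after quantile normalization (horizontal) and in the deposited values (vertical). The dotted line marks equal values, and the Hk1 probe called lower is not drawn. Pgd, Hk1, Pkm, Pfkl and Tpi1 lie above 0.8 on the vertical axis and Rpia lies below -1.2, while Hk3 and Pfkfb2, called higher after quantile normalization, lie near 0.

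Around the pathway, a list of 45 further genes of pyruvate handling, gluconeogenesis, glycerol and sugar phosphates was read in the same fit. Of 40 that were measured, 14 were called higher (35%), 10 lower (25%) and 16 did not pass, against the 30% and 18.2% of all genes. Their median change was 0.35, against 0.20 for all genes. In the deposited values 4 were higher and 5 lower, against 11.2% and 16.7% of all genes. The median was then -0.060, against -0.018 for all genes. The 4 with the smallest p among the higher ones were Pdk3, Pdk1, Tigar and Emb. Pdk3 and Pdk1 encode kinases that switch pyruvate dehydrogenase off, and they rose 3.46-fold (adjusted p = 0.000568) and 2.17-fold (adjusted p = 0.00244). The Pdk1 call was lost in the deposited values (adjusted p = 0.119). Tigar, a phosphatase that breaks down fructose bisphosphate, rose 2.79-fold (adjusted p = 0.00245). Emb, a partner protein of monocarboxylate transporters, rose 2.42-fold (adjusted p = 0.00273) at its brighter probe, and its other probe changed by -0.40 and did not pass (adjusted p = 0.0647).

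The 4 lower genes with the smallest p were Gpd1, Shpk, Pck1 and Pdha1. Gpd1, which makes glycerol phosphate from a glycolytic triose, fell from 15.70 ± 0.047 (SD, n = 2) to 9.10 ± 0.011, a 96.9-fold fall (adjusted p = 5.77e-05). Shpk, sedoheptulokinase, fell at least 5.71-fold and Pck1, a gluconeogenic and glyceroneogenic enzyme, at least 5.43-fold, each taken from the control mean to the floor because the berberine mean lay under it. Pdha1, the catalytic alpha subunit of pyruvate dehydrogenase, fell 3.54-fold, from 15.81 ± 0.18 (SD, n = 2) to 13.98 ± 0.15 (adjusted p = 0.00116).

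Some others were looked at after their values were seen. Pdhb, the beta subunit, changed by -1.05 (adjusted p = 0.00980), a call lost under the 3 other scalings (-0.88 relative to the median of all genes) and without either berberine array. Dlat, the core of the same complex, changed by 0.017 and did not pass (adjusted p = 0.931), and relative to the median of all genes it was -0.19, or -0.47 under the other scalings. Pdk4 rose 1.75-fold (adjusted p = 0.0413), and Pdk2 changed by 0.40 and did not pass (adjusted p = 0.0511). With an intensity trend, an offset, dim probes left out or probes averaged, Pdk2 did pass (adjusted p = 0.0359 to 0.0424), but relative to the median of all genes it turned from 0.20 to -0.18 under the other scalings. Bsg, the chaperone that brings MCT1 and MCT4 to the membrane, changed by -0.82 (adjusted p = 0.0100), and by -0.055 after centring, where it did not pass. Relative to the median of all genes it was -1.03 after quantile normalization and -0.60 under the other scalings. The mitochondrial Pck2 rose 3.11-fold (adjusted p = 0.00352), Gpd2, the mitochondrial partner of Gpd1, 1.94-fold (adjusted p = 0.0101) and H6pd, the endoplasmic reticulum enzyme of the oxidative pentose phosphate steps, 1.64-fold (adjusted p = 0.0115). The call of Pdk4 was lost without control replicate 2 and without either berberine array, those of Bsg, Gpd2 and H6pd without either berberine array and that of Pck2 without berberine replicate 2. In the deposited values Pdk4, Bsg, Gpd2 and H6pd did not pass.

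**Figure D5:**
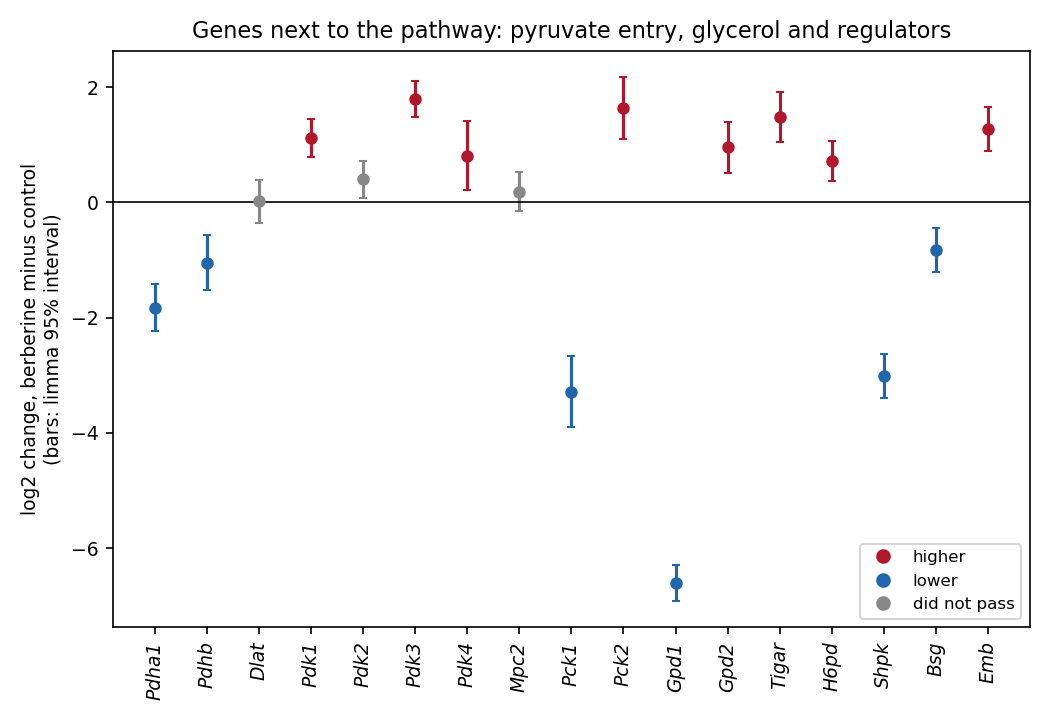
Log2 change (berberine minus control) of 17 genes next to the pathway, chosen for the plot after their values were seen, with limma's 95% interval; red was called higher, blue lower and grey did not pass. Gpd1 stands lowest (-6.60). The pyruvate dehydrogenase subunits Pdha1 and Pdhb lie below 0, while Dlat of the same complex (0.017) did not pass. The kinases Pdk1, Pdk3 and Pdk4 lie above 0, as does Pdk2 (0.40), which did not pass.

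The labels call the cells preadipocytes, and the controls also gave signal for adipocyte markers, at levels that differed widely. Control means were 17.59 for Fabp4 and 17.51 for Adipoq, the adiponectin gene, but 12.16 for Cebpa, 9.85 for Lipe and 4.93 for Pparg, under the floor. Markers of adipocytes also differed between the groups, in both directions. Of 8 listed, 6 were lower and 2 higher, namely Lipe (2.02-fold) and Pparg, which was under the floor in both groups. Their intensities summed to 586419 and 561788 in control and to 32098 and 34038 with berberine. For 9 measured markers of preadipocytes and fibroblasts, the sums were 305635 and 312816 in control and 279764 and 282105 with berberine. These sums rest largely on the brightest marker, Vim (mean 17.21 in control and 17.12 with berberine), which did not pass. Of the others, 4 were lower (Zfp423 by 3.70-fold, Dlk1 by 3.09-fold at its brighter probe, Pdgfra and Col3a1). The other 4 were higher (Col1a1 by 2.81-fold, Pdgfrb by 2.06-fold, Cd34 and Col1a2). The 6 macrophage markers summed to 11482 and 10247 in control and 3648 and 3544 with berberine (1 higher and 2 lower, Adgre1 under the floor in both groups), and without Cd14 the other 5 summed to 1032 and 1209 against 1157 and 1077. The 5 endothelial markers summed to 927 and 979 against 1351 and 1273 (2 higher, Tek under the floor in control), and the 2 muscle markers measured did not pass, with Ckm under the floor. The part of these markers in the results was not tested. Fewer cells of a type and less RNA per cell cannot be told apart in such samples.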

How the data were processed

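Per the labels, Cy5-labelled RNA of 4 samples was read on 1-colour arrays; groups come from the sample titles. The deposited values are linear probe intensities, and no source used here states the scanner, background correction or scaling, so zero point and scale are unknown. Array medians were 423 and 350 in control and 237 and 280 with berberine, 0.84 apart on the log2 scale, above a limit of 0.5, so quantile normalization was used.

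Of 26423 probes in the table, 20377 carried 1 gene symbol, 0 several and 6046 were unnamed here; 18213 matched a current mouse symbol, 2126 an older one and 38 neither. An older symbol was not accepted where it is another gene's current one. Probes with a value of 0 or less on an array (15) were dropped, and no pseudocount was added. limma 3.58.1 (R 4.3.3) fitted each probe with 2 residual and 2.89 prior degrees of freedom, and its code was tested on simulated data. Exact permutation cannot give a two-sided p under 0.33 here. The number of arrays limits the precision. Above log2 10 in control, the arrays of a group differed by a median of 0.26 in control and 0.088 with berberine, while the fit assumes 1 spread.

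Genes are named by rule: every member, with all arrays printed for those called and at least 2-fold changed or with disagreeing probes, and up to 4 neighbouring genes in each direction by smallest p. The members and lists were chosen with earlier results of these data known. Alternatives were other scalings, a replicate block, an intensity trend with robust prior, each array left out, log2(value + 16), dim probes left out, probes averaged and a 2-fold minimum. An array was left out of the fit after all 4 were quantile-normalized together, so it still shaped the remaining values. Promoter sequences are from RefSeq, without the 50 bases after the start.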

Additional observations from a re-analysis of the deposited data

How the results depend on the processing

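The 25 genes gave 16 calls (12 higher, 4 lower) among 11838 called probes, and 24 calls (14 and 10) among 40 neighbouring genes. Of all genes 30% were higher and 18.2% lower. In the deposited values 6687 probes, 6 genes (5 and 1) and 9 neighbours (4 and 5) passed, against 11.2% and 16.7% of all genes. With arrays centred 17 genes and 18 neighbours were higher (44.3% of all genes), and 1 gene and 5 neighbours lower (12.8%). With percentile scaling 12 and 12 were higher (25.1%), and again 1 and 5 lower (14.4%). A 2-fold minimum left 5806 probes and 7 genes (6 and 1), against 12.9% and 11.5% of all genes. Leaving out each array gave 4339 to 10772 probes, 4 to 13 genes (3 to 11 higher, 1 to 3 lower) and 9 to 23 neighbours (4 to 14 higher, 5 to 10 lower), the lone array being assumed to vary like the other group; the cause was not tested. The smallest of these counts were those without a berberine array. Fewer of all genes were then called in each direction, too, than without a control array. The drop is therefore not specific to the 25 genes. Same-numbered arrays showed no shared deviation (r = 0.0035). With the replicate block 12760 probes and 13 genes (10 and 3) passed, against 32.3% and 19.2% of all genes. The calls of Hk3, Pfkfb3 and Slc16a1 were lost.

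Among probes standing for the 25 genes, signs turned only for Hk1 with its probes averaged (-0.14), Hk3 in the deposited values (-0.051), Aldoc without berberine replicate 2 (0.055, with -0.69 to 0.055 over the arrays left out), Pgam1 after centring (0.56) and percentile scaling (0.30), Pgls likewise (0.51 and 0.25), Tkt likewise and with its probes averaged (0.48, 0.22 and 0.35), and Pgam2 in the deposited values (-0.31), after percentile scaling (-0.0046) and without berberine replicate 1 (-0.068, with -0.068 to 0.20 over the arrays left out). Among neighbours named, signs turned for Pdk2 in the deposited values (-0.20) and Dlat in the deposited values (-0.49), after percentile scaling (-0.18) and over the arrays left out (-0.10 to 0.14). Of the 16 calls, 2 (Pfkl and Rpia) held under all 12 alternatives run on single genes.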
